A study of Mus musculus with 4 samples.

Results

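The Ikaros and TOX family genes described here are Ikzf1, Ikzf2, Ikzf3, Ikzf4, Tox and Tox2, 6 of the 21027 genes counted in both deposited tables. They were chosen by name with earlier results of these data in view, and the measured values that chose them were their levels in subsets of group 3 innate lymphoid cells (ILC3s), so those levels are given as a description with no test. The cells had been sorted as ILC3s from the lamina propria of the small intestine, and the mice were 6 to 8 weeks old and carried floxed Cxxc1 alleles with a lineage-restricted Cre, which deletes Cxxc1 in the cells that express it and in their progeny. All 4 labelled samples carry this genotype. They are 2 replicates with 2 sequencing libraries each, captured on the BD Rhapsody system, in which each cell carries a sample tag. No Cxxc1-sufficient cells were analysed here, so nothing below compares genotypes.

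Ikaros family proteins are zinc finger transcription factors that bind DNA and recruit chromatin complexes such as NuRD, and several are degraded by the cereblon ligase when it binds thalidomide analogs. Ikzf1 encodes Ikaros, a regulator of lymphocyte development, Ikzf2 encodes Helios, known in regulatory T cells and innate-like lymphocytes, Ikzf3 encodes Aiolos, known in B lineage and effector lymphoid cells, and Ikzf4 encodes Eos, a partner of Foxp3 in regulatory T cells. TOX proteins bind DNA through an HMG box. TOX is required for the development of innate lymphoid cells and CD4 T cells and is known in exhausted T cells, and TOX2 is known in follicular helper T cells and natural killer (NK) cells.

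The 6 genes lie on separate loci of GRCm38 in GENCODE vM21, an annotation later than the vM19 genes of the counts. Ikzf1 is on chromosome 11 from 11685003 to 11772926 on the plus strand, and Ikzf3 is on the same chromosome from 98464902 to 98546031 on the minus strand. Ikzf2 is on chromosome 1 from 69531214 to 69687245 on the minus strand, and Gm29114 lies within 500 bases of its 3' end, so molecules of these 2 could be counted for either. Ikzf4 is on chromosome 10 from 128630843 to 128645991 and Tox on chromosome 4 from 6686353 to 6991557, both on the minus strand. Tox2 is on chromosome 2 from 163203125 to 163324170 on the plus strand, and no other annotated gene overlaps it.

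Of the 6 genes, 2 (Tox2 and Ikzf1) had promoters in the RefSeq promoter table (GRCm38.p6). Tox2 is shown because its level differed most between the ILC3 gates described below and because its annotated starts fall in regions of different composition. The 250 bases before its first start (chr2:163202877-163203126, plus strand) and the 250 bases before an internal start (chr2:163225203-163225452, plus strand) were:

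Tox2 first start: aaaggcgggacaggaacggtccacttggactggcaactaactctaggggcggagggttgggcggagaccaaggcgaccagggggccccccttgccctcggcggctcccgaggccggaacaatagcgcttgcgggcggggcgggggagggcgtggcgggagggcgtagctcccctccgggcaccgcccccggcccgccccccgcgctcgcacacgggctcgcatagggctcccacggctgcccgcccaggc

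Tox2 internal start: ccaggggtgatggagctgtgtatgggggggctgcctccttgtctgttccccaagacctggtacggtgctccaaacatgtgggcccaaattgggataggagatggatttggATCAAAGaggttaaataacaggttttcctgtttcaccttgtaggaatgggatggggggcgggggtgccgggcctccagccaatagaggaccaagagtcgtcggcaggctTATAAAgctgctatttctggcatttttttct

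Capitals mark matches to ATCAAAG, the core of TCF factor sites, and to the core promoter motif TATAAA, on either strand, and the matches shown do not overlap. These motifs and 4 others were searched, among them the T-box core CACACCT, the RUNX core TGTGGT and the SP1 core GGGCGG, and the capitalised ones were chosen after the sequence had been read. In the internal promoter ATCAAAG began at position -140 and TATAAA at position -31 from the start. Among all 32851 promoters of this length, 3.21% held ATCAAAG and 12.4% held TATAAA. The first promoter held neither motif, had 6 matches to GGGCGG (present in 32.7% of promoters) and was 75.2% G and C, against 52.8% in the internal one. A match is a description of letters, and the counts are per gene, so they do not say which start was used.

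The tagged cells numbered 2077 and 4532, with 11939862 and 12141164 molecules (unique molecular identifiers, UMIs). The filters kept 1906 and 4179 of them, and the median depth of a kept cell was 4200 and 2364 UMIs. Levels are CPM, a gene's UMIs for every 1000000 UMIs of all cells of a class and replicate. The 95% intervals of levels are exact Poisson intervals. Those of ratios are converted from exact binomial intervals on how a gene's UMIs split between the classes. Both kinds cover counting error only. Clusters were named from marker genes, and the cells were not ILC3s alone: ILC3-like clusters held 573 and 1651 cells, which is 30.1% and 39.5%, and T cell gates held 268 and 1784. Il23r, the receptor gene for the cytokine IL-23 and an ILC3 marker, stood at 129 and 138 CPM in the ILC3-like clusters, against 21.4 and 19.5 CPM in T-gated cells. Cxxc1 stood at 42.5 and 47.4 CPM in the ILC3-like clusters, against 90.0 and 78.6 CPM in T-gated cells, and the counted molecules may lie outside the deleted part, so this does not check the deletion. In bulk sums of a class, fewer cells with a transcript and less transcript per cell cannot be told apart without the shares of cells given below.

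Ikzf2 and Ikzf3 were higher in ILC3-like cells gated on Ncr1, the gene of the activating receptor NKp46, than in those gated on Ccr6, a chemokine receptor of lymphoid tissue inducer-type ILC3s, and Tox2 and Tox were lower. The gates take ILC3-like cells with a UMI of one gene and none of the other, 103 and 215 Ncr1-gated cells and 49 and 155 Ccr6-gated cells in replicates 1 and 2. The 421 and 1278 cells with neither gene are called ungated. Since these differences helped to choose the members, they carry no test.

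Ikzf2 stood at 414 and 403 CPM in the Ncr1-gated cells of replicates 1 and 2, from 146 and 248 UMIs. It stood at 102 and 195 CPM in the Ccr6-gated cells. The groups did not overlap. The ratio was 4.06 (95% interval 2.56 to 6.76) in replicate 1 and 2.07 (1.64 to 2.62) in replicate 2. Ungated cells lay between, at 256 and 262 CPM.

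Ikzf3 stood at 113 and 112 CPM in the Ncr1-gated cells and at 38.9 and 27.3 CPM in the Ccr6-gated cells. The Ccr6-gated values rest on 8 and 15 UMIs. The ratios were 2.92 (1.35 to 7.22) and 4.11 (2.33 to 7.73). Ungated cells were again between the gates, at 67.8 and 61.7 CPM.

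Tox2 went the other way, at 8.51 and 32.5 CPM in the Ncr1-gated cells against 228 and 144 CPM in the Ccr6-gated cells. In replicate 1 the Ncr1-gated level rests on 3 UMIs. The ratio of Ncr1-gated over Ccr6-gated was 0.0373 (0.00742 to 0.116) in replicate 1 and 0.226 (0.131 to 0.373) in replicate 2. All Ncr1-gated values were below all Ccr6-gated ones, with ungated cells between at 64.5 and 85.1 CPM.

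Tox differed less, at 90.8 and 71.5 CPM in the Ncr1-gated cells against 155 and 153 CPM in the Ccr6-gated cells, with ratios of 0.584 (0.347 to 0.985) and 0.467 (0.317 to 0.681). Ikzf1 was at 221 and 236 CPM against 257 and 348 CPM, with ratios of 0.860 (0.599 to 1.24) and 0.677 (0.542 to 0.845). These intervals cover counting error only and are no test. Ikzf4 had 2 UMIs in the Ncr1-gated cells of each replicate and 0 and 3 in the Ccr6-gated cells, too few for a ratio.

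Counting genes at least 2-fold apart one way in both replicates, 2 members (Ikzf2 and Ikzf3) were on the Ncr1 side and 1 (Tox2) on the Ccr6 side, of 5 with at least 20 UMIs. Among 7475 genes with as many UMIs, 2.62% were on the Ncr1 side and 3.24% on the Ccr6 side, 5.86% in all. The choice of members used this contrast, so nothing is read from these counts. Nor is anything read from the lack of overlap given above, whose share over all genes was not counted. Of the lists, the NuRD complex had 0 of 13 genes and the cereblon ligase 0 of 5 on either side. Their median log2 ratios were 0.14 and -0.23, beside 0.01 over all genes. Of 20 lymphoid transcription factors 2 were on each side, with a median of 0.17. Follicular helper genes had 2 of 4 on the Ccr6 side, with a median of -1.89. Exhaustion and checkpoint genes had 1 of 7 and regulatory T cell genes 1 of 6 on each side. Notch pathway genes had 1 of 5 on the Ncr1 side, and other corepressors 0 of 5 on either. Of the other family genes, Ikzf5 and Tox4 were on neither side, and Tox3 had 1 UMI in all ILC3-like cells.

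The clusters that held the gates differed between replicates. In replicate 1, cluster 3 held 86.4% of the Ncr1-gated and 89.8% of the Ccr6-gated cells. In replicate 2, 78.1% of the Ncr1-gated cells were in cluster 1 and 97.4% of the Ccr6-gated cells were in cluster 0. Cluster 1 led with Gzmc, Xcl1, Ncr1 and Klrb1c and is called NK-type below for these genes only. It was named ILC3-like, with 9 ILC3, 8 NCR subset and 5 ILC1 or NK cell markers raised. Leaving it out kept 89 and 47 Ncr1-gated cells, so it took away most of this gate in replicate 2. Markers of ILC1 or NK cells summed to 2749 and 1722 CPM in the Ncr1-gated cells and to 126 and 96.5 CPM in the Ccr6-gated cells. Eomes, a defining NK factor, was at 0 in the Ncr1-gated cells of both replicates. T cell markers summed to 899 and 856 CPM against 330 and 461 CPM, with 9 of 11 detected in the Ncr1-gated cells of each replicate and Cd5 and Cd6 at 0.

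Within cluster 3 of replicate 1 the ratio of Ikzf2 was 3.61 (2.23 to 6.12) and that of Tox2 was 0.0395 (0.00787 to 0.123). Cluster 0 of replicate 2 held 47 Ncr1-gated cells. Ikzf2 was at 1.42 (0.975 to 2.05) within it, Ikzf3 at 2.34 (0.830 to 6.22), Tox2 at 0.711 (0.388 to 1.23) and Tox at 0.254 (0.0905 to 0.576). The ratios of Ikzf2, Ikzf3 and Tox2 were nearer to 1 there than over all gated cells of that replicate, and that of Tox was further from it. These intervals too cover counting error only. Without cells that held a UMI of CD3 or the T cell receptor, Ikzf2 ratios were 5.61 and 1.82 and Tox2 ratios 0.0355 and 0.242.

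A second pair of gates, made in the ungated cells from other subset genes (Klrk1, Klrb1c or Xcl1 against Nrp1, Cxcr5 or Cd4), took 165 and 416 cells against 49 and 191. Tox2 was at 28.4 and 31.4 CPM against 124 and 138 CPM. Ikzf2 was at 298 and 319 CPM against 190 and 236 CPM, and Ikzf3 at 83.3 and 86.8 CPM against 38.0 and 43.8 CPM. These cells did not enter the first gates, yet they are of the same samples and clusters. Ikzf1 had no common direction, with ratios of 1.72 and 0.804.

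**Figure D1:**
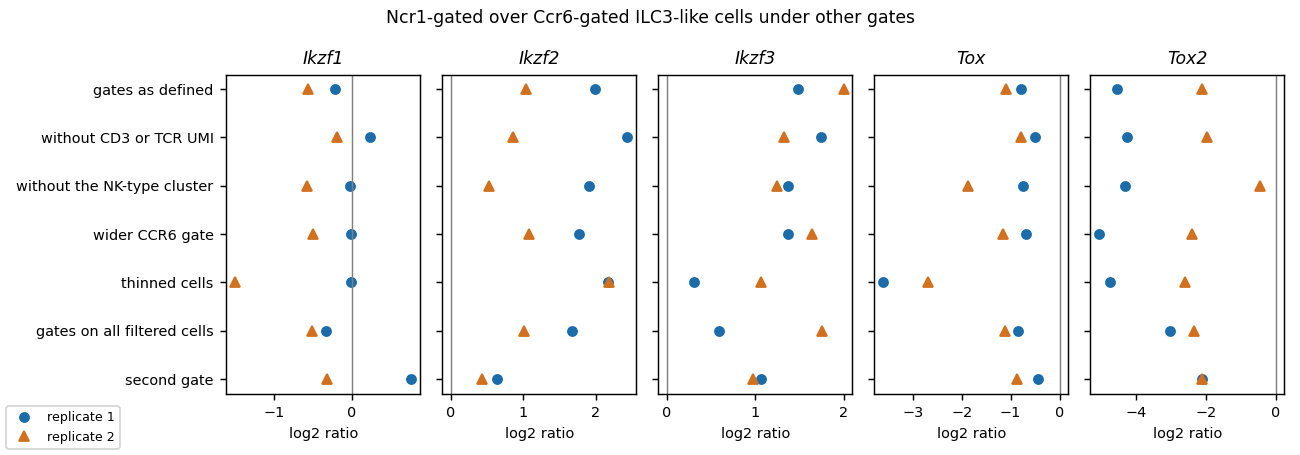
Log2 ratio of Ncr1-gated over Ccr6-gated ILC3-like cells (horizontal axis, 0.5 added to each UMI count) for 5 genes under 7 definitions of the gates, 1 point per replicate. Ikzf2 and Ikzf3 are above 0 and Tox and Tox2 below 0 in both replicates under each definition shown, while Ikzf1 crosses 0. Apart from the second gates the definitions share cells. After thinning, replicate 1 had 44 Ncr1-gated and 18 Ccr6-gated cells. There Ikzf3 rests on 1 and 0 UMIs, Tox on 0 and 2, and Tox2 on 0 and 5.

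Shares of cells with a UMI gave the same order after each cell had been thinned to 1000 UMIs. An Ikzf2 UMI was found in 32.0% and 31.1% of Ncr1-gated cells and in 8.16% and 18.8% of Ccr6-gated cells, against 1.52% and 3.16% of stromal-like cells. A Tox2 UMI was found in 0 of 103 and 5 of 212 Ncr1-gated cells and in 11 of 49 and 17 of 154 Ccr6-gated cells, against 0.608% and 0.395% of stromal-like cells. A count of 0 in 103 cells allows a share of up to 3.52% (95% exact binomial). Thinning left out 0 and 3 Ncr1-gated cells and 0 and 1 Ccr6-gated cells. The unthinned shares were 65.0% and 59.5% against 28.6% and 43.2% for Ikzf2, and 2.91% and 6.98% against 51.0% and 34.2% for Tox2. Median UMIs per cell were 3206 and 2713 in the Ncr1-gated cells, 3981 and 3404 in the Ccr6-gated cells and 8504 and 7061 in the stromal-like cells.

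Among ungated cells, those with a Tox2 UMI (59 and 199 cells) had Ikzf2 at 189 and 220 CPM, against 270 and 271 CPM in those without. Cells with and without an Ikzf2 UMI had Tox at 104 and 112 CPM against 98.8 and 101 CPM. The split is by a detected UMI, so it also follows depth, whose part was not tested.

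Ungated ILC3-like cells with a UMI of Il22, the main ILC3 cytokine, had more Tox2 and less Ikzf2 and Ikzf3 in both replicates than those without. This comparison took cells outside the Ncr1 and Ccr6 gates, 277 and 844 with and 144 and 434 without an Il22 UMI. They are subsets of the ILC3-like cells of the same samples, and the subset markers of both gates differed between them, so the members' values are a description here too and carry no test. NCR subset markers summed to 668 and 754 CPM with Il22 and to 1777 and 2353 CPM without. CCR6 subset markers summed to 712 and 774 CPM with Il22 and to 363 and 412 CPM without. Markers of ILC1 or NK cells summed to 635 and 535 CPM against 2116 and 1808 CPM. This list and that of the NCR subset both hold Klrb1c, Klrd1, Tbx21 and Xcl1, so their sums are not separate. Median depth was 3495 and 2786 UMIs against 3110 and 2271.

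Tox2 was at 83.8 and 107 CPM with Il22 and at 19.9 and 34.7 CPM without (means 95.4 ± 16.4 and 27.3 ± 10.4, SD, n = 2). The groups did not overlap, and the fitted log2 fold change was 1.73. Ikzf2 was at 222 and 243 CPM with Il22 and at 335 and 306 CPM without, which gave -0.44 on the log2 scale. Ikzf3 was at 59.8 and 50.4 CPM against 86.4 and 87.7 CPM, which gave -0.70 on the log2 scale. Neither of these overlapped between the groups. Tox was at 109 and 114 CPM against 84.2 and 87.7 CPM, a log2 fold change of 0.38, also without overlap. The share of all genes without overlap was not counted in this split, so nothing is read from the lack of overlap. Ikzf1 was at 244 and 299 CPM against 237 and 287 CPM, with overlapping groups, and Ikzf4 had 2 and 8 UMIs with and 0 and 5 without Il22.

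**Figure D2:**
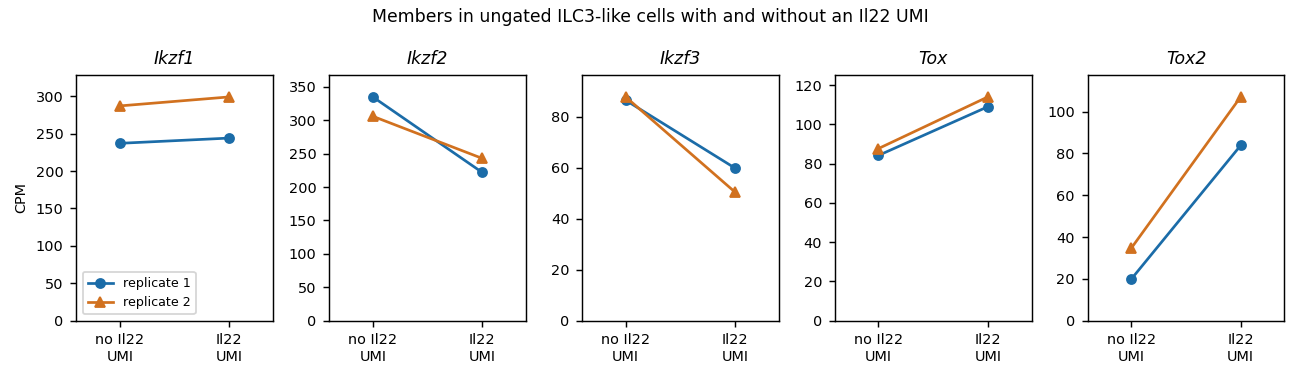
Level in CPM (vertical axis, from 0) of 5 genes in ungated ILC3-like cells without and with an Il22 UMI, with a line per replicate. Tox2 goes from 19.9 and 34.7 to 83.8 and 107 CPM, and Ikzf2 from 335 and 306 to 222 and 243 CPM.

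The log2 fold changes of Ikzf2 and Ikzf3 were about as large after thinning (-0.40 and -0.64) and without cells holding a CD3 or T cell receptor UMI (-0.43 and -0.66), and those of Tox2 were 1.52 and 1.51. Without the NK-type cluster, itself ILC3-like, they were 1.11 for Tox2, -0.37 for Ikzf2 and -0.35 for Ikzf3. That left 270 and 624 cells with and 133 and 151 cells without an Il22 UMI. The part of the subset makeup in these differences was not tested.

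Over all genes, 8095 were tested in this split (edgeR quasi-likelihood test with the replicate as a block, Benjamini-Hochberg over all genes, threshold 0.05). Higher levels with Il22 were called for 2.20% of genes and lower levels for 1.99%, 4.19% in all. The spread was pooled fully across genes with 1 residual degree of freedom, so the calls rest on the spread shared by all genes, and without the replicate block 4 genes were called. Genes of the lists that passed included Nfil3 (log2 fold change 0.51, SE 0.11) and Tcf7 (0.39, SE 0.09), factors of innate lymphoid development, which were higher with Il22. Tbx21, the factor of type 1 lymphocytes, was lower (-0.84, SE 0.21), and it is also a marker in the NCR subset and ILC1 or NK cell lists. Of 21 lymphoid transcription factors tested 3 were higher and 1 lower, with a median of -0.10 beside 0.00 over all genes. Cxcr5 was higher (1.43, SE 0.33), the 1 called of 3 follicular helper genes tested, and Nrp1 was higher (0.99, SE 0.32), the 1 called of 6 regulatory T cell genes. Both are also CCR6 subset markers, whose sum was higher with Il22 as given above. In the checkpoint list Nr4a1 was lower (-0.25, SE 0.07), the 1 called of 6 checkpoint genes. Gatad2a was the 1 of 13 NuRD genes called, lower with Il22 (-0.42, SE 0.13), and none of 5 other corepressors, 5 cereblon ligase genes or 6 Notch pathway genes was called.

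In CD4 T cells no member tested differed between gates beyond the spread of the replicates. Ikzf1 was at 352 and 282 CPM in Ifng-gated cells (76 and 393 cells) and at 287 and 325 CPM in cells with no Foxp3, Ifng or Il21 UMI (113 and 608 cells). Ikzf2 was low in both, at 83.0 and 91.7 against 56.3 and 94.7 CPM, below all ILC3-like values. Ikzf3 was at 89.7 and 131 against 160 and 111 CPM. Tox was at 26.6 and 63.4 against 23.7 and 41.9 CPM, and Tox2 at 59.8 and 36.2 against 47.4 and 60.6 CPM. For each of these 5 genes the replicate ranges of the gates overlapped.

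This comparison was added after the cell numbers and levels had been seen. No member passed it (lowest adjusted p = 0.980, for Tox, edgeR), while 0.498% of 6421 genes were called higher and 0.140% lower with Ifng. The log2 fold change of Tox2 was -0.39 with an SE of 0.32 and that of Ikzf2 0.13 with an SE of 0.26. Of 9 regulatory T cell genes tested 4 were higher with Ifng: Il2ra (log2 fold change 1.12, SE 0.22), Il10 (2.19, SE 0.51), Il1rl1 (0.85, SE 0.22) and Tnfrsf4 (0.83, SE 0.22), with a list median of 0.38 beside 0.00 over all genes. Prdm1 (1.11, SE 0.27) and Maf (0.53, SE 0.14), factors of effector T cells, were the 2 of 18 lymphoid factors called. NCR subset markers, a list that holds the gate gene Ifng, summed to 6632 and 2918 CPM in the Ifng-gated cells against 2609 and 1231 CPM, and markers of ILC1 or NK cells to 4291 and 1897 CPM against 2339 and 1237 CPM. In replicate 2, 44.5% of the Ifng-gated cells and 20.7% of the others were in cluster 5, whose leading genes include Il21, Il1rl1, Tnfrsf4 and Ifng, while in replicate 1 cluster 9 held 94.7% and 90.3%. The part of these in the calls was not tested. Neither DESeq2 nor edgeR without the replicate block called any gene, with 44 and 110 genes at an unadjusted p under 0.05.

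Foxp3, the factor that defines regulatory T cells, gave 4 UMIs in 2 cells and 7 UMIs in 5 cells of all that were kept, and the Foxp3-gated CD4 class held 1 cell in each replicate. Ikzf2 and Ikzf4 could therefore not be described in regulatory T cells. Il21-gated CD4 cells numbered 2 and 37, and those of replicate 2 had Ikzf2 at 140 CPM (70.1 to 251), Tox at 51.0 CPM (13.9 to 131) and Tox2 at 63.8 CPM (20.7 to 149). CD8-gated cells numbered 9 and 198, and those of replicate 2 had Ikzf2 at 173 CPM (137 to 214), Ikzf3 at 160 CPM (126 to 200) and Tox2 at 10.5 CPM (3.42 to 24.6). Of these cells 51.5% were in cluster 4, all cells of which had Ikzf2 at 70.3 CPM in replicate 2, and 44.9% in the unnamed cluster 11, where Ikzf2 was at 400 CPM, so the CD8-gated level mixes clusters with unlike levels.

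Gamma-delta-gated cells, taken by Trdc without Cd4 or Trac, had Ikzf2 at 581 CPM (407 to 805, 15 cells) and 363 CPM (303 to 431, 159 cells), a range that overlapped that of Ncr1-gated ILC3-like cells. Tox2 had 0 and 1 UMI in them. Tox was at 0 CPM in replicate 1, which allows up to 59.6 CPM, and at 59.1 CPM in replicate 2. In replicate 2, 69.8% of these cells were in cluster 11, which carried T cell and NK markers and was left unnamed, and 47 were also CD8-gated. In replicate 1, 80.0% were in cluster 5, and plasma cell markers summed to 62632 CPM there against 754 CPM in replicate 2, whose part in these levels was not tested.

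Type 2 cells, the cluster that led with Il13 and Il5, had the highest mean Ikzf3 of the 11 classes compared, at 202 and 209 CPM. The next class, CD4 cells with neither cytokine, was lower in both replicates, at 160 and 111 CPM. Outside these classes, the unnamed cluster 15 (11 and 120 cells, median 607 UMIs) had Ikzf3 at 195 and 398 CPM, from 8 and 38 UMIs. In type 2 cells Ikzf3 is thus highest only among the classes compared. Tox2 was at 123 and 107 CPM and stood second to the Ccr6-gated cells without overlap on either side. Tox was at 79.1 and 88.8 CPM, within the range of Ncr1-gated ILC3-like cells, and Ikzf2 was at 132 and 75.0 CPM. Cells of this cluster with a CD3 or T cell receptor UMI numbered 35 of 36 and 191 of 193, and T cell markers summed to 4458 and 5095 CPM. The cluster raised 9 ILC2 markers and 9 T cell markers. Only 1 and 2 of its cells lacked a CD3 or T cell receptor UMI, so type 2 T cells and type 2 innate cells could not be compared.

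**Figure D3:**
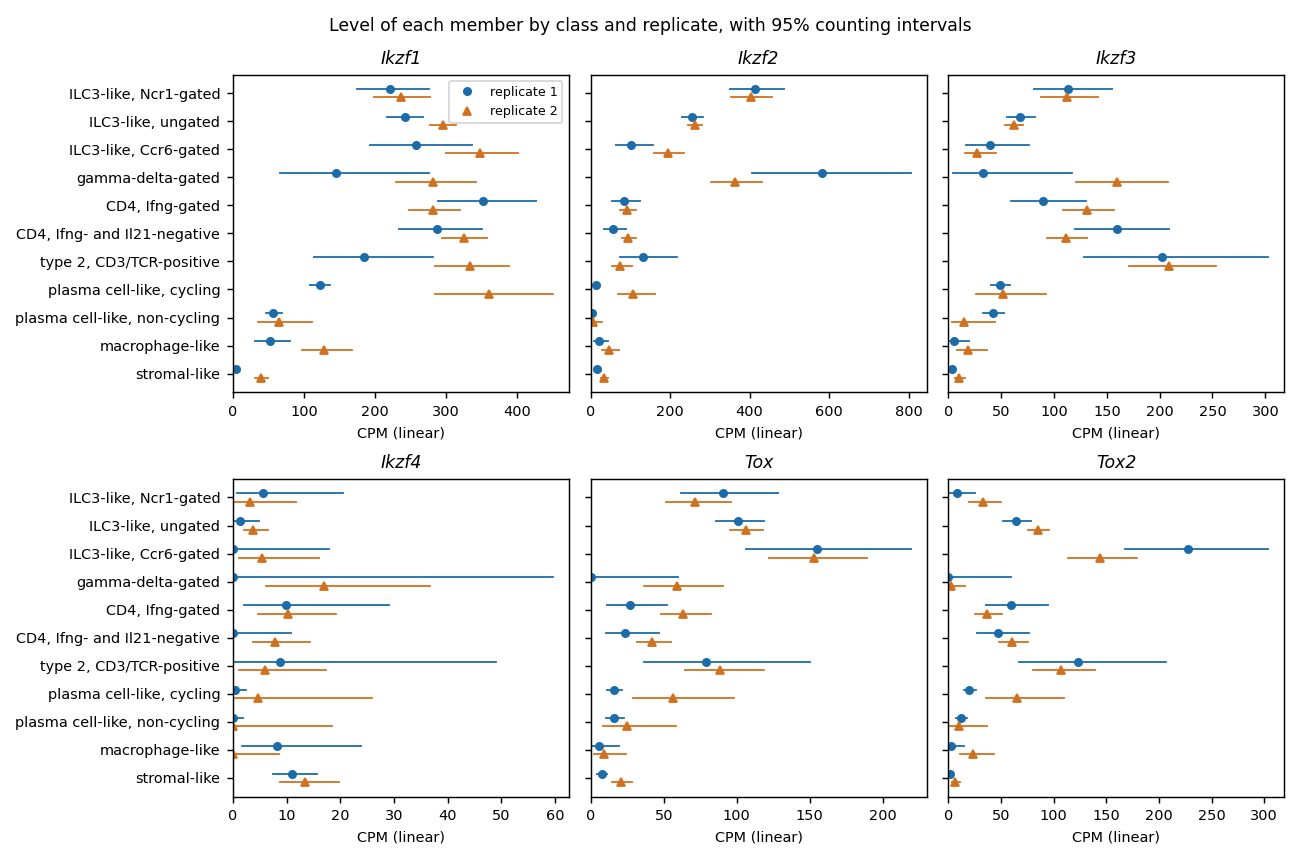
Level in CPM (linear horizontal axis, scaled per gene) of each gene in 11 classes, 1 point per replicate with its 95% counting interval. Ikzf2 is highest in gamma-delta-gated and Ncr1-gated cells, Ikzf3 in type 2 cells, and Tox and Tox2 in Ccr6-gated cells.

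Across these classes, the 8 highest means of Ikzf1 ran from a mean of 317 ± 49.7 CPM in Ifng-gated CD4 cells to 213 ± 96.1 CPM in gamma-delta-gated cells, and each overlapped its neighbour in that order. Macrophage-like cells (51.7 and 128 CPM), non-cycling plasma cell-like cells (56.7 and 65.2 CPM) and stromal-like cells (3.89 and 39.1 CPM) were below. Plasma cell markers took 561135 and 505503 CPM of the non-cycling plasma cell-like class, which left less of its total for other genes. The part of this in the level of Ikzf1 was not tested. For Tox, Ccr6-gated cells (154 ± 1.78 CPM) stood above ungated ILC3-like cells (104 ± 3.32 CPM), and these above type 2 cells (84.0 ± 6.85 CPM), with no overlap. Ikzf4 was low throughout, with its highest mean in stromal-like cells (12.3 ± 1.83 CPM, from 31 and 26 UMIs), followed by Ifng-gated CD4 cells (10.1 ± 0.157 CPM, from 3 and 9 UMIs).

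In both replicates UMIs of all 6 genes were found in cycling plasma cell-like cells, as also in stromal-like cells. Ikzf4 had 1 UMI in the cycling plasma cell-like cells of each replicate. Non-cycling plasma cell-like cells held UMIs of all but Ikzf4 in both replicates. Cells without a UMI of 5 cycling genes (307 and 40 cells) had Ikzf1 at 56.7 and 65.2 CPM, Tox at 15.9 and 25.1 CPM, Ikzf3 at 41.8 CPM in replicate 1 and 3 UMIs in replicate 2, and Ikzf2 at 2.65 and 5.02 CPM. Tox2 had 22 and 2 UMIs there and Ikzf4 none, which in replicate 1 allows up to 1.95 CPM. Cycling cells (236 and 36) had Ikzf1 at 122 and 360 CPM and Ikzf2 at 14.4 and 107 CPM. Ikzf3 was at 48.4 and 51.4 CPM in them, Tox at 15.7 and 56.1 CPM and Tox2 at 19.6 and 65.4 CPM. No member passed the test of cycling over non-cycling cells, in which 0.959% of 7302 genes were called higher and 0.164% lower. Ikzf2 came nearest (log2 fold change 2.17, SE 0.64, adjusted p = 0.193, edgeR), then Ikzf1 (0.81, SE 0.41, adjusted p = 0.443, edgeR). The fit, scaled by TMM, gave -0.25 (SE 0.43) for Ikzf3, -0.48 (SE 0.47) for Tox and 0.41 (SE 0.53) for Tox2. Plasma cell markers summed to 561135 and 505503 CPM in non-cycling and to 343017 and 47849 CPM in cycling cells. Less of each total was therefore left for other genes in the non-cycling cells, and the part of this in the members' levels was not tested.

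The cycling cells of replicate 2 carried other cells' markers. Plasma cell markers summed to 47849 CPM there, against 505503 CPM in the non-cycling cells of that replicate and 343017 CPM in the cycling cells of replicate 1. T cell markers summed to 3232 CPM with 10 of 11 detected, against 732, and markers of ILC1 or NK cells to 4522 CPM against 140. In replicate 1 T cell markers summed to 268 and 178 CPM in cycling and non-cycling cells. Ikzf2 passed without a low-count filter (adjusted p = 0.0287, edgeR) and without the plasma cell-like cluster that also raised stromal markers (0.0327), and missed the threshold in the other fits that tested it. None of the lists had a gene called in this comparison, among 13 NuRD genes, 4 cereblon ligase genes and 16 lymphoid factors tested.

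The genes whose pattern over the 11 classes was most like that of each member are given as a description, since the classes share libraries and depth. For Tox2 these were Tnfsf11, which encodes the cytokine RANKL (r = 0.83 and 0.88 in the replicates), Egln3 (0.83 and 0.79) and Gpr183, an oxysterol receptor (0.77 and 0.91), among 3227 genes. For Ikzf2 they were Pdcd6ip (0.93 and 0.92), Tatdn2 (0.91 and 0.95) and Gcnt2 (0.92 and 0.91). For Ikzf3 they were Ptpn22, a lymphocyte phosphatase (0.88 and 0.89), Fam107b (0.88 and 0.93) and Ndfip1 (0.88 and 0.90). For Ikzf1 they were Arhgef6 (0.94 and 0.95), Cyfip2 (0.96 and 0.92) and Pik3cd (0.92 and 0.92), and for Tox Prr7 (0.90 and 0.91), Gabbr1 (0.92 and 0.90) and Dad1 (0.87 and 0.89). For Ikzf4 they were Ano6 (0.79 and 0.85), Rdh10 (0.82 and 0.70) and Mbtps1 (0.64 and 0.68), with a pattern that rests on few UMIs, since Ikzf4 did not reach 100 CPM in any class.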

How the data were processed

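The deposited tables hold raw UMI counts, cell by gene. The authors made them, per the file headers, with the BD WTA Multiplex Rhapsody pipeline, version 1.8, on GRCm38 with GENCODE vM19 genes, and the deposited sample tag calls are names of another kind than counts. HISAT2 2.0.5 and Bowtie2 are listed, without a role, in the submitters' processing notes. Cells with tag 4 of the 8064-cell capture and tag 2 of the 15793-cell capture were used. The captures shared 7 cell numbers (10.6 at random).

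Cells were kept with 300 or more genes and no more than 25% of UMIs from mitochondrial genes. Scrublet removed 39 (2.01%) and 6 (0.143%) doublets, so in replicate 2 doublet calling barely worked. Clustering (scanpy 1.11.5, 2000 variable genes including 3 members, scaled per replicate, 30 components, Leiden 0.8) gave 21 clusters, named from at least 3 raised markers. Classes were cut by gate genes, and UMIs were summed per replicate and class.

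Sums were tested with edgeR 4.0.16 (quasi-likelihood, TMM, filterByExpr, replicate as block) where both classes held 10 cells in both replicates, and with DESeq2 1.42.0 as an alternative. The replicates pair the classes because both classes of a replicate come from 1 sample. Planned tests of Foxp3-gated, Il21-gated, CD8-gated and type 2 cells lacked cells, and the planned joint fit of T cell classes was replaced by a fit of 2 classes. On simulated data the Il22 comparison recovered 95% of 2-fold and 100% of 4-fold changes, the Ifng comparison 72% and 100%, and the plasma cell comparison 3% and 44%. The 200 changed genes were drawn only from those above a set mean level. The simulation used the fitted spread and had no difference between replicates. These shares therefore do not give the recovery for members with lower levels. With the replicate as a block, p-values measure how far a class difference varied between 2 samples, not the spread between the samples themselves. Nothing in the labels makes the replicates separate animals, so that variation may be technical. In the Ifng fit, as in the Il22 fit, the spread was pooled fully across genes, with 1 residual degree of freedom. The planned test of the members in the Il22 comparison is not reported, since the members were chosen by their levels in ILC3 subsets. Members, lists and gates were chosen with earlier results of these data known. Named genes are the members, up to 4 genes per list and comparison that passed, and the 3 most alike by the lower of 2 correlations of log2(CPM + 10). Results that need a gene withheld from this text are not reported here.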

Additional observations from a re-analysis of the deposited data

How the results depend on the processing

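With Il22, 339 genes were called, against 270 with no low-count filter, 335 with clusters made without the members, 165 after thinning, 83 without cells holding a CD3 or T cell receptor UMI, 28 without the NK-type cluster, 26 with DESeq2 and 4 with no replicate block. For cycling plasma cell-like cells 82 were called, against 482 with no low-count filter, 36 after thinning, 353 with a stricter cycling gate, 425 without the cluster with stromal markers, 48 with DESeq2 and 0 with no replicate block, where 508 genes had an unadjusted p under 0.05 in edgeR. For Ifng-gated cells 41 were called, against 19 after thinning and 0 with DESeq2 (44 at an unadjusted p under 0.05) or edgeR with no replicate block (110).

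Of 5 members, 3 were at least 2-fold apart between the Ncr1 and Ccr6 gates in both replicates, beside 5.86% of all genes. It was 2 without cells holding a CD3 or T cell receptor UMI and 2 with gates on all filtered cells. It was 1 without the ILC3-like cluster called NK-type, 1 with the second gates, and between 3 and 4 with a single replicate. The share over all genes was not counted for these other settings, so their counts have no background. The mean log2 ratio of Ikzf1 turned from -0.39 to 0.02 without CD3 or T cell receptor UMIs and to 0.22 with the second gates; the cause was not tested. The single-cluster values, the Il22 fit without the NK-type cluster, the plasma fit without the cluster with stromal markers and the Ifng comparison were chosen after seeing the data. Few UMIs limit Ikzf4 in the Ncr1 and Ccr6 gates, with 0 to 3 in each gate and replicate. Tests of Foxp3-gated, Il21-gated, CD8-gated and type 2 cells could not be run under any setting, for want of cells.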
